A study of Mus musculus with 14 samples.

Results

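The comparison was between the High and the Negative cell populations, the brightest and the non-fluorescent gate of cells from the small intestine of Sox9-eGFP mice, across all microRNA (miRNA) entries of a small RNA sequencing table. It used the 3 High and the 3 Negative libraries of 14 in all, chosen by their column names. The other libraries were 3 of Low, 3 of Sublow and 2 of Non-sorted cells, which entered the statistical model but not the contrast. All 6 libraries came from small intestine of strain C57BL/6J mice with a Sox9-eGFP transgene, whose green fluorescence tracks the activity of the Sox9 locus. No age, treatment or further allele was given in the labels, and they do not say whether libraries of a group came from separate animals, so the p-values describe the spread between these particular libraries and nothing wider. The gates are ranges of fluorescence and may each hold several cell types. From earlier use of this mouse, the High gate is known as rich in enteroendocrine cells, and the Negative gate as mostly differentiated absorptive epithelium.

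A miRNA is cut from a hairpin, whose 5′ and 3′ sides give the 5p and 3p arms. The loaded arm finds its target mRNAs mainly through its seed, bases 2 to 8, so miRNAs that share a seed can reach overlapping targets. Enteroendocrine cells secrete hormones in response to gut contents and share several abundant miRNAs, among them miR-375 and miR-7, with pancreatic islets and neurons. Absorptive cells are known for miR-192, miR-194 and miR-215, whose genes are controlled by hepatocyte nuclear factors (HNF).

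The mature sequences below, from the RefSeq table for build GRCm38.p6, belong to miRNAs described in detail below, chosen to show shared seeds and clusters and some of the largest differences. They are written 5′ to 3′ with the seed in capitals. The first set was higher in High cells. The miR-7 pair shares the seed GGAAGAC and differs at 1 of 23 compared bases. miR-182 and miR-183 belong to 1 cluster on chromosome 6, and miR-99b, let-7e and miR-125a form a cluster on chromosome 17.
miR-7a-5p: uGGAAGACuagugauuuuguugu
miR-7b-5p: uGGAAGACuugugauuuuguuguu
miR-182-5p: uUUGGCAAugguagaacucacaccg
miR-183-5p: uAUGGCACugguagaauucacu
miR-99b-5p: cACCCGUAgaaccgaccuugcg
let-7e-5p: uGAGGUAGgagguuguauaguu
miR-125a-5p: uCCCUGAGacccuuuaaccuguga
miR-1224-5p: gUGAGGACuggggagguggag
miR-184-3p: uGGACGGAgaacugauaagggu
miR-139-3p: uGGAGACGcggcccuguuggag

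The second set was higher in Negative cells, except for miR-192-5p, which is shown because it has the same seed as miR-215-5p, UGACCUA, and differs from it at 3 of 21 bases, all outside the seed.
miR-215-5p: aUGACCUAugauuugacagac
miR-192-5p: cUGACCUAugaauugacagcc
miR-194-5p: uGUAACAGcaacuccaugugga
miR-203-3p: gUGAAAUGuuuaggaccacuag
miR-802-5p: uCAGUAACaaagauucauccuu

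The deposited values are RPM, read counts scaled to the same total over all miRNA entries of a library. The estimated depth of the 6 libraries ranged from 1.89 M to 16.02 M miRNA reads, and the smallest listed value corresponded to 10 to 10.5 reads, so a listed 0 means fewer than about 10 reads. Members of the miR-290 to miR-295 cluster, known from pluripotent cells, were listed in some libraries of both groups, and none of the 6 tested markers of such cells passed the test. miR-295-3p was listed at 928 RPM in High replicate 2 and at 839 and 669 RPM in Negative replicates 1 and 2, but at 0 in the other 3 libraries, and it was listed in 7 of the 14 libraries. The lane tokens in the labels differ too, L000 and L008 for High against L005 and L006 for Negative. Lane and gate thus cannot be told apart within the 6 libraries. Column names with L000 also carry the word Combo, which the labels do not explain. L000 may therefore not be a single lane, although it was treated as a lane here. A fit of all 14 libraries with a lane term was possible because Low, Sublow and Non-sorted libraries share L000, L005 or L006. L008 held only High replicate 3, so that library adds nothing to the High estimate of this fit. L000 held only High and Low libraries, so High and Negative were linked only through Low replicate 1 on L005. Values with the lane term therefore rest on few libraries. Pearson correlations over the tested entries were 0.835 to 0.929 between High libraries, 0.902 to 0.987 between Negative libraries and 0.623 to 0.760 between the groups.

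High and Negative cells differed in most of their miRNA entries. Of 588 entries with at least 10 RPM in at least 3 libraries, 390 passed the test, of which 258 (43.9% of those tested) were higher in High and the rest (22.4%) lower (limma on log2(RPM + 1), Benjamini-Hochberg adjusted p under 0.05). Changes below are log2 differences, High minus Negative, on this scale, which understates changes of low values. Of the 275 tested entries at the annotated start, 170 passed, 42 of them lower, and of the 313 with a shifted start, 130 were higher and 90 lower. The median change over all 588 entries was 0.57. High and Negative values did not overlap in 399 entries (67.9%), and this share and those of higher (43.9%) and lower (22.4%) entries are the background for the counts of list members. With the lane term 239 entries passed, 84 of them lower. Without the 7 libraries that list miR-295-3p, which leaves 2 High libraries and 1 Negative library assumed to vary like the others, 279 passed, 84 of them lower.

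**Figure D1:**
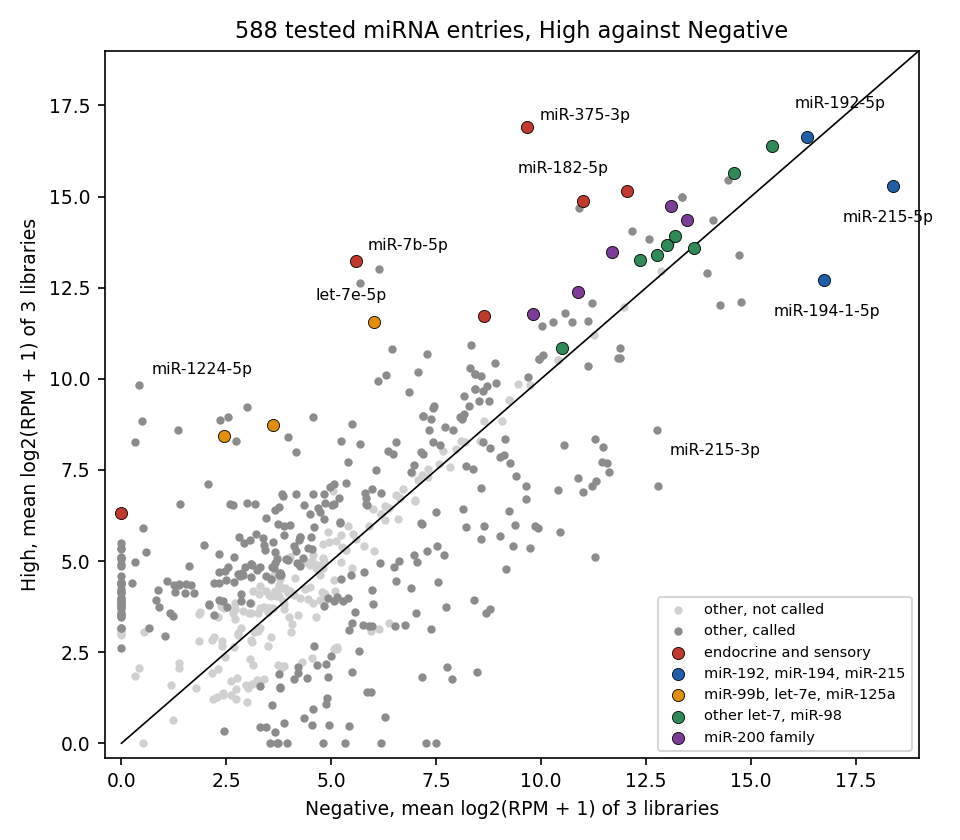
Mean log2(RPM + 1) of the 3 High libraries (vertical axis) against that of the 3 Negative libraries (horizontal axis) for the 588 tested entries, with called entries in dark grey and members of 5 lists in colour. miR-375-3p and miR-7b-5p lie far above the line of equality, miR-215-5p and miR-194-1-5p far below it, and miR-192-5p close to it.

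The pool of miRNA reads was made up differently in the 2 gates. Entries of miR-192, miR-194 and miR-215 held 16, 18.8 and 18.7% of the summed RPM in the 3 High libraries and 59.9, 59.7 and 60.0% in the 3 Negative libraries. Entries of miR-375, miR-7 and miR-182, miR-183 and miR-96 ran the other way, with 26.1, 26.1 and 23.0% in High against 0.942, 0.943 and 1.13% in Negative. Neither pair of groups overlapped. let-7 entries with miR-98 held 28.5% (SD 2.42) against 15.8% (0.292), the miR-200 family 7.48% (0.44) against 2.85% (0.275), and miR-26 7.69% (0.889) against 2.96% (0.196). In Low and Sublow libraries the HNF-linked share was 20.7% (1.51) and 44.5% (1.02), and the endocrine share 14.2% (1.46) and 4.58% (0.143), each between the values of High and Negative.

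**Figure D2:**
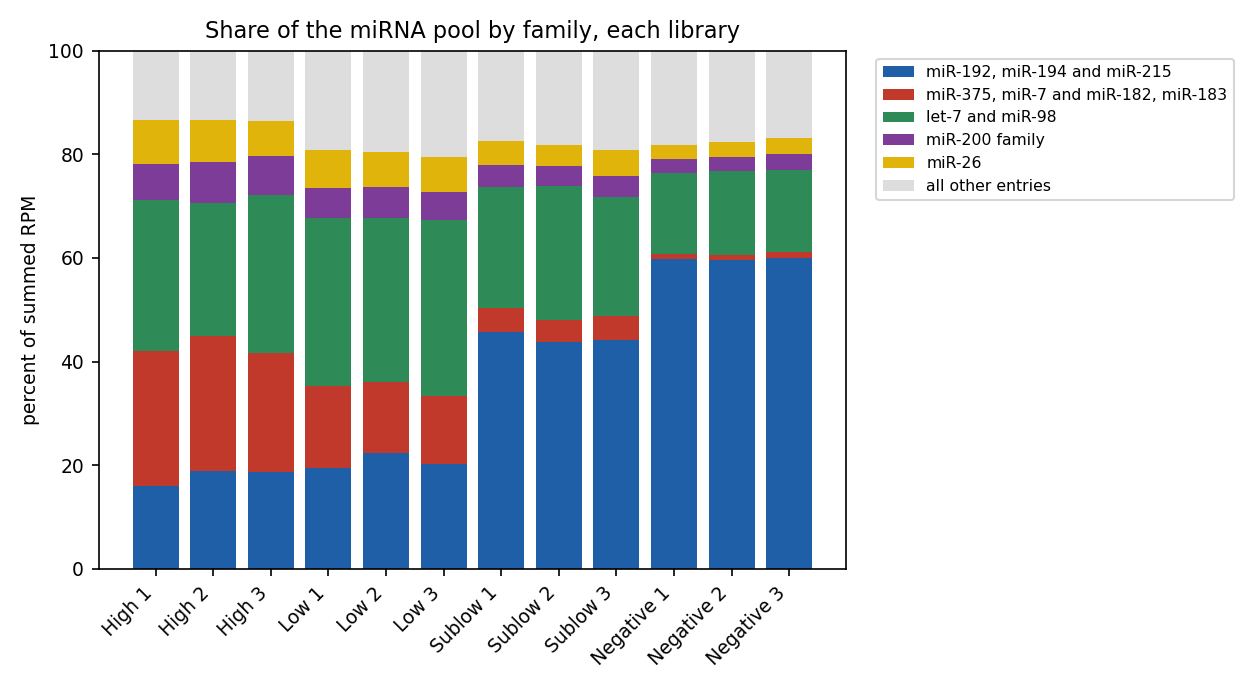
Percent of the summed RPM (vertical axis, from 0 to 100) held by 5 miRNA families and by all other entries in each of the 12 sorted libraries, as stacked bars. The share of miR-192, miR-194 and miR-215 goes from 17.8% on average in High to 59.9% in Negative, while that of miR-375, miR-7, miR-182 and miR-183 goes from 25.1% to 1.01%.

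Each library has the same total, so a larger share of some entries lowers the RPM of all others, and the direction of small changes depends on the scaling. Median-ratio rescaling, which sets the typical entry as unchanged, moved the median change by −0.52, and low-level entries by less, and gave 193 higher and 172 lower entries, so that 52.9% of calls were higher against 66.2% as deposited. Quantile normalization gave 205 and 160 (56.2%). RPM recomputed without miR-192, miR-194 and miR-215 moved the median by −1.01 and gave 350 calls, 225 of them lower (35.7% higher). Under all 4 scalings 256 entries kept their call and its direction. Every entry lower as deposited was among them, but most of the 258 higher as deposited were not. In RPM without miR-192, miR-194 and miR-215, 21.3% of tested entries were higher, against 43.9% as deposited. In that scaling 12 calls turned from higher to lower. Many of the higher calls thus depend on the scaling. The total amount of miRNA per cell was not measured, and fewer cells of a type and less RNA per cell cannot be told apart in such pooled libraries.

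miRNAs of endocrine and sensory cells rose together. All 6 tested members of the list (miR-375, miR-7a, miR-7b, miR-182, miR-183 and miR-153) were higher in High (against 43.9% of all entries) and none was lower. Their median change was 5.10, and all 6 stayed higher under each scaling. miR-96, which lies between miR-182 and miR-183, was listed at 4.25 RPM in 1 High library and at 1.06 RPM in 1 Negative library and was not tested. The list was described in earlier analyses of these data and is not independent evidence of its direction.

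miR-375-3p, a regulator of hormone secretion in islet cells, was listed at 118336, 135119 and 117014 RPM in High and at 657, 724 and 1130 RPM in Negative. It was higher in High by 7.24 on the log2 scale, with the groups far apart (SE 0.23, limma adjusted p = 2.19e-10). It was the most abundant entry of the High libraries. miR-7b-5p, a miRNA of neuroendocrine cells, was at 11782, 9793 and 7741 RPM against 40.7, 31.8 and 78.4 RPM (7.66, SE 0.33, adjusted p = 1.43e-09). miR-7a-1-5p, with the same seed, was at 37058, 27530 and 26248 RPM against 1956, 1795 and 2427 RPM. Its difference was smaller (14.7-fold, 3.87, SE 0.26), and it remained well detected in every Negative library.

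miR-182-5p and miR-183-5p, miRNAs prominent in sensory cells, differed by nearly the same amount. miR-182-5p was at 36201, 39315 and 33101 RPM against 4030, 4363 and 4307 RPM (8.55-fold, 3.09, SE 0.10, adjusted p = 2.19e-10). miR-183-5p was at 3291, 3479 and 3391 RPM against 374, 365 and 463 RPM (3.08, SE 0.11). The log2 ratio of the neighbours was 3.29 to 3.50 in High and 3.21 to 3.57 in Negative (difference 0.01, SE 0.15, adjusted p = 0.959). miR-153-3p, a brain-enriched miRNA, was at 70.5, 127 and 55.0 RPM in High and listed at 0 in all 3 Negative libraries.

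Several other miRNAs were near the detection limit in Negative cells. miR-1224-5p, a mirtron, whose hairpin is a spliced intron, was at 593, 1288 and 960 RPM in High and at 0, 0 and 1.44 RPM in Negative, the largest log2 change of the named annotated-start entries (9.39, SE 0.45, adjusted p = 3.71e-09). miR-184-3p was at 336, 330 and 258 RPM against 0, 0 and 0.94 RPM (7.94, SE 0.30). miR-139-3p was at 470, 441 and 586 RPM against 4.11, 5.29 and 5.19 RPM (6.41, SE 0.22). In these 3 miRNAs all High libraries were above all Negative libraries, as in many entries, and the calls held with the lane term (adjusted p = 9.26e-05 or less) and without the libraries that list miR-295-3p (adjusted p = 7.06e-04 or less).

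Other miRNAs named for their size, apart from those of the clusters and arms described below, were miR-92b-3p (6.22), miR-672-5p (5.57), miR-132-3p (5.06) and miR-744-5p (4.36). miR-92b-3p averaged 598 RPM (SD 94.2) in High against 7.3, 6.71 and 6.92 RPM in the Negative libraries. miR-744-5p was at 1550, 2035 and 1845 RPM against 82.0, 104 and 76.2 RPM. miR-10a-5p was also named by its size, at 332, 425 and 846 RPM against 7.04, 14.2 and 108 RPM (4.38, SE 1.46, adjusted p = 0.0203). That call was lost with the lane term, which gave −0.31 (adjusted p = 0.924), and its adjusted p was 0.0593 to 0.0778 without High replicate 3 or Negative replicate 1 or 2. Replicate 3 was also the highest in Low (59.4, 74.8 and 1199 RPM) and Sublow (23.7, 20.7 and 729 RPM), and Low replicate 3 exceeded every High library. The reason was not tested.

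The 3 miRNAs of the miR-99b, let-7e and miR-125a cluster were all higher in High (against 43.9% of all entries), as they were under each scaling. let-7e-5p, a let-7 family member, was at 3154, 3026 and 2923 RPM in High and at 68.4, 75.9 and 49.5 RPM in Negative (47.0-fold, 5.55, SE 0.22, adjusted p = 7.78e-10). miR-125a-5p, a relative of the developmental miRNA lin-4, was at 367, 346 and 315 RPM against 4.11, 4.48 and 4.75 RPM (5.98, SE 0.26). miR-99b-5p was at 472, 461 and 359 RPM against 18.8, 18.9 and 3.56 RPM (5.14, SE 0.47). The ratio of let-7e to miR-125a did not pass the test (−0.42, SE 0.26, adjusted p = 0.227).

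**Figure D3:**
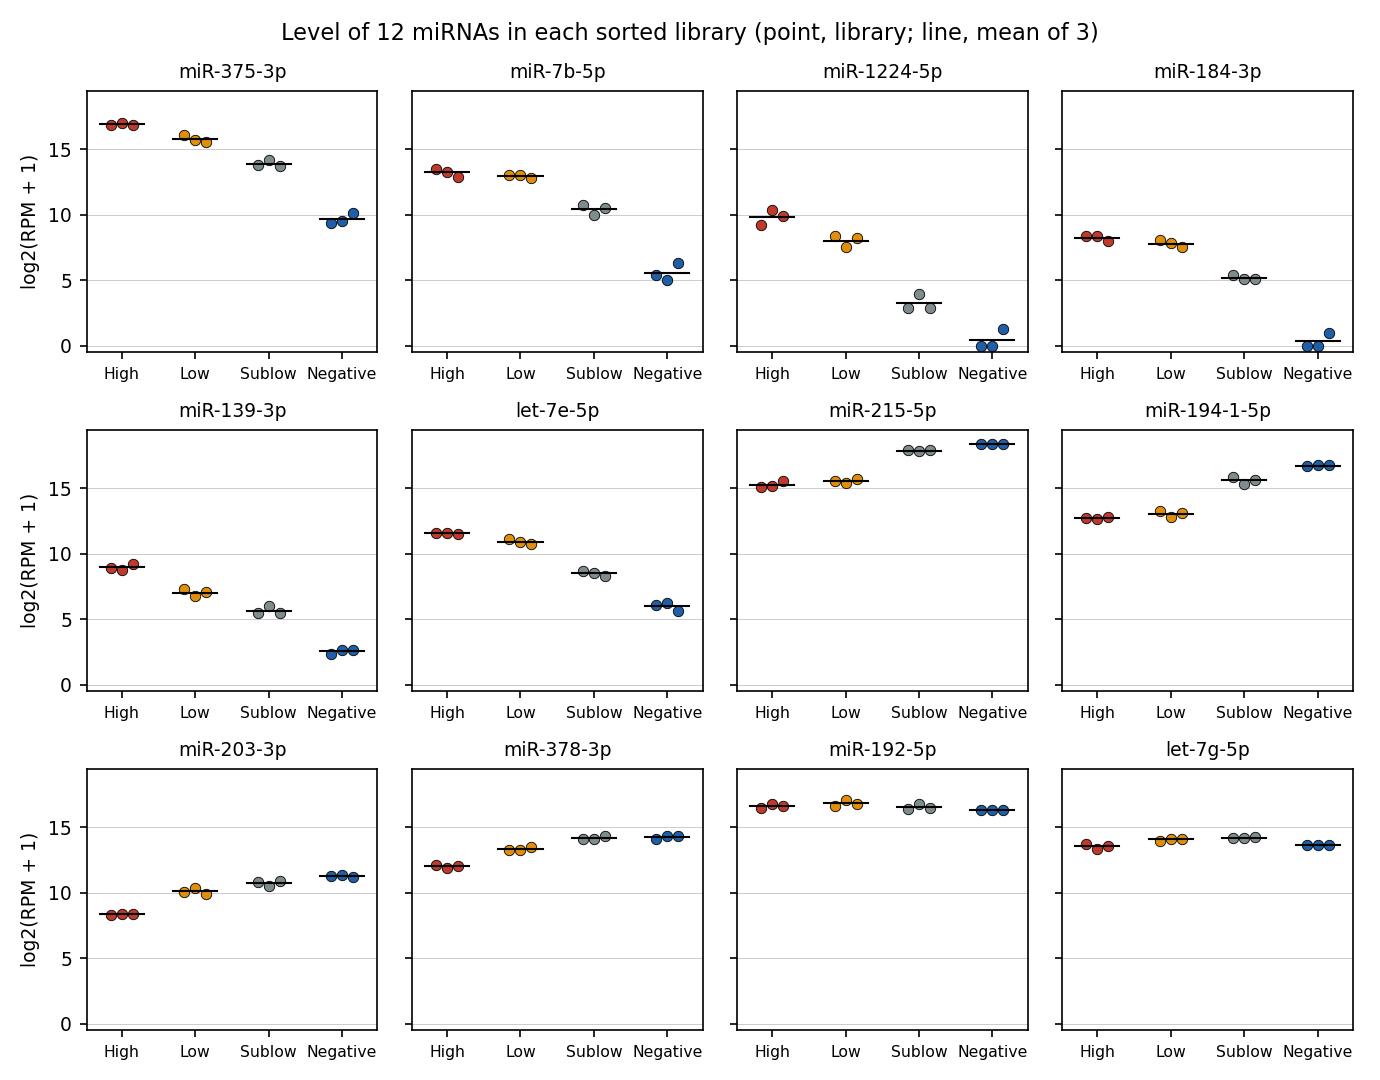
log2(RPM + 1) of 12 miRNAs (vertical axis) in each library of the 4 sorted populations (horizontal axis), with 1 point per library and a line at the mean of 3. The first 6 miRNAs fall from High to Negative, the next 4 rise, and miR-192-5p and let-7g-5p stay within a narrow range.

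Low and Sublow levels of most of these miRNAs lay between those of the 2 gates. Of the 258 entries higher in High, 178 had their highest group mean in High, 76 in Low and 4 in Sublow. Of the lower entries, 67 had means that rose at each step from High through Low and Sublow to Negative, and 97 were highest in Negative. miR-375-3p averaged 58075 RPM in Low and 15413 RPM in Sublow, and High was above Low by 1.10 (limma adjusted p = 0.00413). Among others that differed between High and Low were miR-139-3p (1.92, adjusted p = 5.74e-05) and, in the other direction, miR-203-3p (−1.77, adjusted p = 9.88e-05). Some named miRNAs did not differ between High and Low by the test. Among them, miR-7b-5p averaged 8107 RPM in Low (0.25, adjusted p = 0.636) and miR-7a-1-5p 25905 RPM (0.21, adjusted p = 0.621). miR-184-3p averaged 225 RPM in Low (0.46, adjusted p = 0.291). miR-672-5p dropped most between High and Low, from 309, 280 and 363.2 RPM in High to a mean of 30.5 RPM in Low (difference 3.33, adjusted p = 9.26e-05), with 10.8 RPM in Sublow and 10.4, 6.71 and 2.37 RPM in Negative. miR-802-5p, on the other side, averaged 607 RPM in Sublow and 613 RPM in Negative, and Sublow did not differ from Negative by the test (adjusted p = 0.915).

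Of the neuronal list, 4 of 5 tested members were higher in High (against 43.9% of all entries) and none lower (median 3.99, against 0.57). miR-132-3p, an activity-regulated neuronal miRNA, was at 133.2, 120 and 162 RPM against 2.93, 3.46 and 3.06 RPM. Its neighbour miR-212-3p was at 34.04, 19.9 and 11.6 RPM against 0 in all 3 Negative libraries. miR-129-1-5p was at 39.6, 26.0 and 24.9 RPM and miR-137-3p at 17.9, 15.7 and 11.6 RPM, both also listed at 0 in all Negative libraries. miR-128-1-3p rose by 0.70, but was not called after rescaling (0.16, adjusted p = 0.458) and was at −0.32 in RPM without the HNF-linked miRNAs. miR-9 and miR-138 of this list were at 0 in all 6 libraries, and miR-218-2-5p did not pass (0.27, adjusted p = 0.451). miR-124, also on the list, had no matching entry and could not be assessed.

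The miR-200 family, which keeps cells epithelial by repressing Zeb1 and Zeb2, was higher in High in all 5 tested members (against 43.9% of all entries). Their median change was 1.65, but miR-200c-3p was at −0.15 in RPM without the HNF-linked miRNAs and at −0.00 with quantile normalization. The members of the family fall into 2 seed groups, shown here to set them beside their values.
miR-200a-3p: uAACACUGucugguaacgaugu
miR-141-3p: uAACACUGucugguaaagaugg
miR-200b-3p: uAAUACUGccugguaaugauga
miR-200c-3p: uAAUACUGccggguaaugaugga
miR-429-3p: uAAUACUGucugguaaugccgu

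miR-141-3p was at 2790, 4421 and 3577 RPM against 894, 848 and 926 RPM (1.99, SE 0.17). miR-200c-3p, its neighbour 336 bases away, was at 20985, 21034 and 21181 RPM against 10761, 11442 and 12065 RPM (0.88, SE 0.08). The ratio of the 2 was higher in High by 1.11 (SE 0.24, adjusted p = 0.00834, 0.362 with the lane term and 0.0699 without the libraries that list miR-295-3p). miR-200b-3p (1.79), miR-200a-3p (1.65) and miR-429-3p (1.52) form the second cluster, and the ratios among them did not pass, with adjusted p of 0.189 to 0.569. Summed over entries, the AACACUG seed was 3.11% of the pool in High and 0.967% in Negative, and the AAUACUG seed 3.79% and 1.67%.

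The other let-7 members changed little and their direction depends on the scaling. Of 8 tested, 7 were higher as deposited (against 43.9% of all entries), with a median of 0.71. After median-ratio rescaling 3 were higher and 1 lower, and in RPM without the HNF-linked miRNAs 5 were lower and none higher. let-7b-5p was at 87923, 72852 and 96704 RPM against 44365, 46371 and 48094 RPM (0.88), and at −0.15 without those miRNAs. let-7g-5p was at 13738, 10657 and 12465 RPM against 12931, 12646 and 12882 RPM and was not called (−0.07, adjusted p = 0.618). By contrast, let-7d-3p, the minor arm of let-7d, was at 685, 752 and 999 RPM against 90.4, 150 and 112 RPM (2.79, SE 0.28, adjusted p = 3.02e-06), and remained higher without the HNF-linked miRNAs (1.76).

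**Figure D4:**
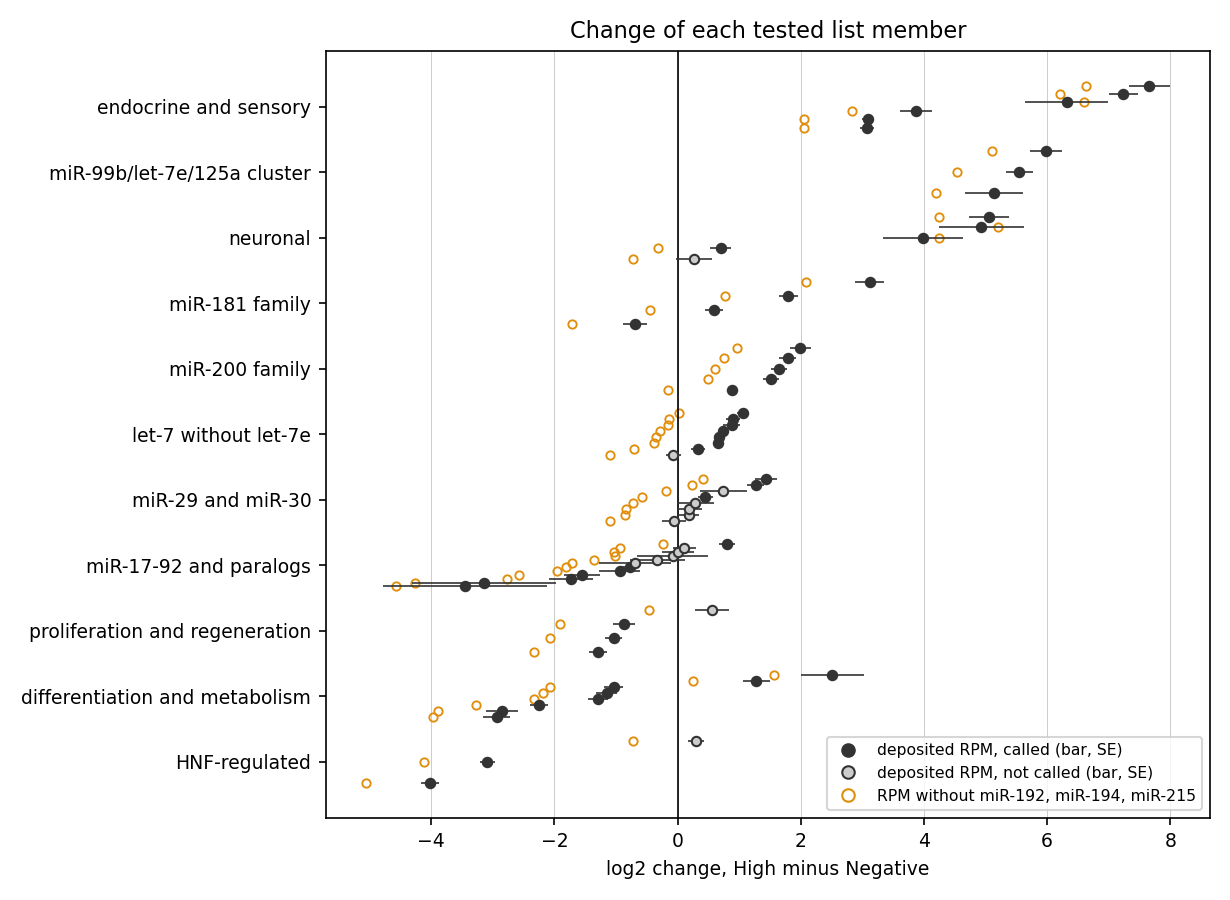
log2 change, High minus Negative (horizontal axis), of each tested member of 11 lists (vertical axis), with SE bars, filled where called and pale where not, and open circles for the change in RPM without miR-192, miR-194 and miR-215. The endocrine, miR-99b cluster and HNF-linked calls keep their side of 0, whereas let-7 members lie on either side of it depending on the scaling.

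Of the HNF-regulated miRNAs, miR-215 and miR-194 fell in High and miR-192 was not called. miR-215-5p was at 36188, 37413 and 47543 RPM in High and at 345077, 341051 and 335102 RPM in Negative. It was 8.43-fold higher in Negative (log2 change −3.09, SE 0.12, adjusted p = 5.88e-10) and was the most abundant entry of the Negative libraries. miR-194-1-5p was at 6673, 6351 and 7213 RPM against 105883, 110365 and 112607 RPM (16.3-fold, −4.02, SE 0.14). The entry miR-194-2-5p was at 4274, 4614 and 4374 RPM against 27334, 25969 and 30282 RPM (6.30-fold, −2.65, SE 0.16). miR-192-5p was at 89615, 113889 and 103896 RPM against 82704, 82655 and 82816 RPM (0.30, SE 0.13, adjusted p = 0.0622, but 0.0323 without High replicate 1 and 0.0290 with the 6 libraries only). Its change was −0.25 after rescaling, 0.44 with quantile normalization (adjusted p = 9.09e-04) and −0.73 in RPM without these 3 miRNAs.

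These miRNAs come from 2 pairs of hairpins. miR-194-1 (chromosome 1, 185313319 to 185313385, plus strand, GRCm38.p6) lies next to miR-215 (185313581 to 185313692). miR-194-2 (chromosome 19, 6264643 to 6264728, plus strand) lies next to miR-192 (6264844 to 6264932). The 5p arms of both miR-194 hairpins have the same mature sequence, so neither 5p entry can be assigned to 1 hairpin, but the 3p arms differ at 4 of 22 bases, 1 of them in the seed. Such arms were compared for 4 pairs of hairpin copies, within a set of 89 ratios between hairpins that was added after the data were seen. The pairs of miR-194, miR-7a and miR-30c passed, and that of miR-92a 5p arms did not (2.18, SE 0.99, adjusted p = 0.128). Of the 89, 7 (7.87%) were higher in High and 16 (18%) lower. The order of names set which hairpin came first in a ratio, so across pairs only the total of 23 (25.8%) carries meaning.
miR-194-1-3p: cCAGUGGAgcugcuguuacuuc
miR-194-2-3p: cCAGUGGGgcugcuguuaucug
miR-7a-1-3p: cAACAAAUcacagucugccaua
miR-7a-2-3p: cAACAAGUcccagucugccaca
miR-30c-1-3p: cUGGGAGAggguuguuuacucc
miR-30c-2-3p: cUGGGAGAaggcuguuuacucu

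Of the 2 miR-194 3p arms, the one from the miR-215 locus was lower in High and the other did not pass. miR-194-1-3p was at 175, 137.2 and 219 RPM in High against 3191, 3268 and 2932 RPM in Negative (−4.16, SE 0.22), close to miR-215-3p, which was at 358, 358 and 451.2 RPM against 7253, 6829 and 6675 RPM (−4.16, SE 0.11). miR-194-2-3p was at 508, 361 and 511 RPM against 426, 611 and 580 RPM, with overlapping groups (−0.23, SE 0.22, adjusted p = 0.398). The log2 ratio of the 2 arms was −1.53 to −1.22 in High and 2.34 to 2.90 in Negative (difference −3.93, SE 0.24, adjusted p = 3.51e-07, 0.00480 with the lane term and 0.0155 without the libraries that list miR-295-3p). A ratio within a library does not move with the scaling. In RPM without the HNF-linked miRNAs, miR-194-2-3p itself was at −1.26.

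The 2 miR-7a hairpins, on chromosome 13 (58392779 to 58392886, minus strand) and chromosome 7 (78888277 to 78888373, plus strand), were told apart in the same way. miR-7a-2-3p was at 491, 422 and 451.2 RPM in High and at 0, 0 and 1.75 RPM in Negative (8.34, SE 0.45, adjusted p = 1.29e-08). miR-7a-1-3p was at 37.6, 44.4 and 31.8 RPM against 14.3, 12 and 27.6 RPM (1.11, SE 0.33, adjusted p = 0.0118, 0.159 with the lane term). Their log2 ratio was −3.79 to −3.22 in High and 3.38 to 3.93 in Negative (difference −7.23, SE 0.26, adjusted p = 3.14e-09, and −7.10 without the libraries that list miR-295-3p). The Negative libraries thus listed the chromosome 13 arm above the chromosome 7 arm, and the High libraries the reverse. The size of the difference depends in part on the added 1, since miR-7a-2-3p was listed at 0, 0 and 1.75 RPM in Negative.

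miR-30c, a member of a family abundant in epithelia, showed a smaller difference of this kind. miR-30c-2-3p was at 61.8, 34.1 and 63.4 RPM against 11.7, 14.04 and 15.6 RPM (1.83, SE 0.30), whereas miR-30c-1-3p was at 22.6, 18.1 and 15.9 RPM against 20.7, 18.1 and 25.9 RPM (−0.19, adjusted p = 0.569). Their ratio was lower in High by 2.01 (SE 0.31, adjusted p = 8.15e-04). The shared miR-30c-5p sequence was not called (0.19, adjusted p = 0.442).

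**Figure D5:**
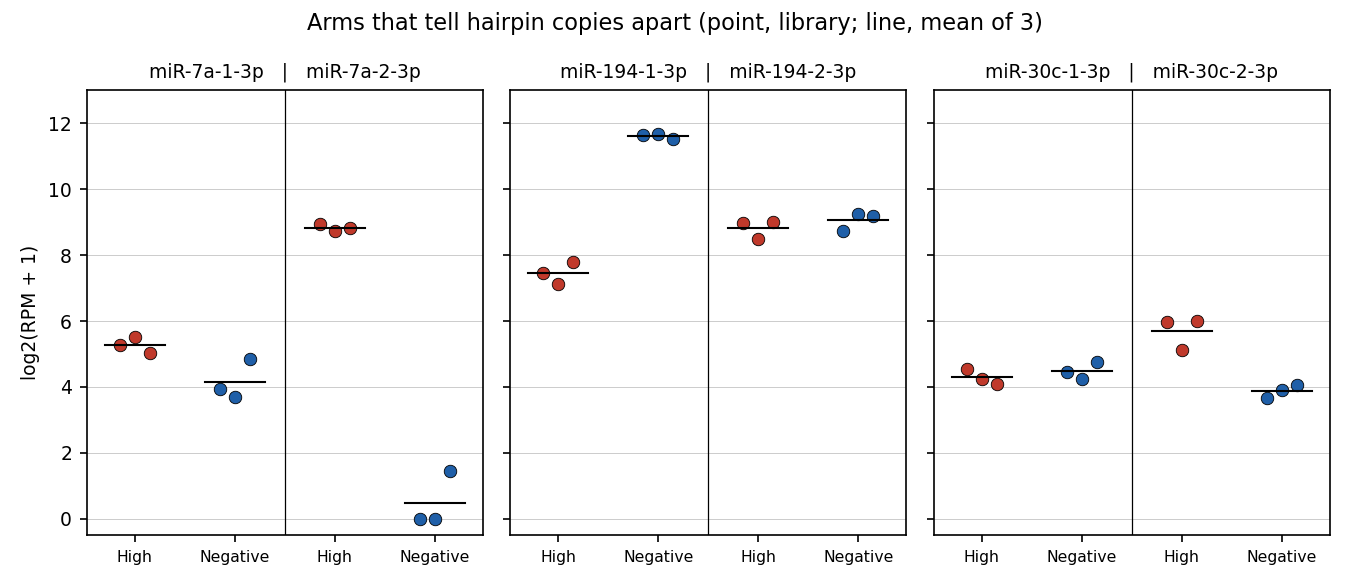
log2(RPM + 1) (vertical axis) of the 3p arms that tell hairpin copies apart, for miR-7a, miR-194 and miR-30c, in the 3 High (red) and 3 Negative (blue) libraries, with a line at each mean. In each panel 1 copy changes by much more than the other.

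Some neighbouring hairpins of 1 cluster also differed from each other. miR-25-3p and miR-93-5p, 118 bases apart in a paralog of the miR-17-92 cluster, changed in opposite directions. miR-25-3p was at 2856, 2740 and 3401 RPM against 1713, 1606 and 1821 RPM (0.80, but −0.23 without the HNF-linked miRNAs), and miR-93-5p was at 1210, 1305 and 1368 RPM against 2087, 2383 and 2185 RPM (−0.78). Their ratio was higher in High by 1.58 (SE 0.16, adjusted p = 2.64e-05, 0.0192 with the lane term). The ratio of miR-181a to miR-181b was higher by 1.20 (SE 0.14) in the chromosome 1 pair and by 1.28 (SE 0.15) in the chromosome 2 pair, whose mature forms are shared. The ratio of miR-221 to miR-222 was lower by 1.43 (SE 0.24, adjusted p = 0.00136), with an adjusted p of 0.136 without the libraries that list miR-295-3p.

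miRNAs linked to differentiation and metabolism were mostly lower in High, with 6 of 8 tested lower (against 22.4% of all entries) and 2 higher (against 43.9%), and a median of −1.22. miR-203-3p, which restrains proliferation in stratified epithelia, was at 313, 337 and 333 RPM against 2473, 2663 and 2402 RPM (7.67-fold higher in Negative, −2.94, SE 0.22, adjusted p = 2.06e-07). miR-802-5p, a miRNA of hepatic and intestinal metabolism, was at 94.5, 72.1 and 81.9 RPM against 537, 514 and 790 RPM (−2.85, SE 0.26). miR-378-3p, encoded within the metabolic coactivator gene Ppargc1b, was at 4414, 3744 and 4325 RPM against 18139, 20410 and 20657 RPM (−2.25, SE 0.14).

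miR-103-2-3p (−1.29), miR-107-3p (−1.15), a pair with nearly the same sequence that is linked to insulin sensitivity, and miR-22-3p (−1.04) were lower as well. The 2 that went the other way were miR-148a-3p, at 3139, 2752 and 3257 RPM against 1082, 1064 and 1688 RPM (1.28, SE 0.22), and miR-122-5p, the main liver miRNA, at 34.9, 113 and 25.9 RPM against 6.85, 9.77 and 6.06 RPM (2.51, SE 0.51). Neither passed with the lane term (adjusted p = 0.236 and 0.143).

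Of 4 tested miRNAs linked to proliferation and regeneration, 3 were lower in High (against 22.4% of all entries) and none higher (against 43.9%), also after rescaling. miR-21-5p, which is often raised in proliferating and inflamed tissue, was at 10454, 10270 and 11960 RPM against 23179, 27102 and 30176 RPM (−1.29, SE 0.15). miR-31-5p, which rises in intestinal regeneration, was at 7847, 7257 and 7993 RPM against 15794, 16571 and 15002 RPM (−1.04, SE 0.14). miR-221-3p was at 209, 158 and 180.8 RPM against 288, 312 and 413 RPM (−0.87, SE 0.18), and miR-222-3p did not pass (0.56, adjusted p = 0.0878), except without High or Negative replicate 3 (0.0268 and 0.0199).

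In the miR-17-92 family, which promotes the cell cycle, 6 of 12 tested members were lower (against 22.4% of all entries) and 1 was higher (against 43.9%), with a median of −0.73. miR-17-5p was at 97.98, 202.8 and 104 RPM against 377.7, 384 and 364 RPM (−1.55, SE 0.29, adjusted p = 5.82e-04, 0.0586 with the lane term). miR-20a-5p was at 46.7, 154.8 and 83.0 RPM against 294.7, 267 and 288 RPM (−1.73). miR-20b-5p and miR-106a-5p were also called lower. miR-20b-5p was at 12.7, 119 and 0 RPM against 184, 210 and 54.4 RPM, highest in the 3 libraries that list miR-295-3p, and its change was −0.01 (adjusted p = 0.995) with the lane term and −1.67 (0.157) without High replicate 3. The part of those libraries in the result was not tested. Across the lists, the other calls that did not pass with the lane term were miR-22-3p (adjusted p = 0.0506), miR-31-5p (0.0544), miR-18a-5p (0.0571), miR-34a-5p (0.0587), miR-20a-5p (0.105), miR-25-3p (0.113), miR-128-1-3p (0.115), miR-15b-5p (0.124), miR-181a-1-5p (0.239), miR-30a-5p (0.386), miR-106a-5p (0.755) and miR-98-5p (0.902).

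The miR-181 family was split. miR-181c-5p was at 901, 1447 and 1208 RPM against 133.2, 160 and 110 RPM (3.12, SE 0.24) and miR-181d-5p at 596, 548 and 698 RPM against 156, 194.7 and 175 RPM (1.80, SE 0.16). miR-181b-2-5p was lower at 315, 200 and 315 RPM against 427, 413 and 479 RPM (−0.69, SE 0.19), and miR-181a-1-5p rose by 0.59 as deposited but was at −0.44 in RPM without the HNF-linked miRNAs. miR-34c-5p and miR-34a-5p moved in opposite directions. miR-34c-5p was higher, at 41.0, 45.5 and 26.4 RPM against 0, 0 and 2.37 RPM, and miR-34a-5p, a target of p53, was lower, at 17.4, 41.1 and 41.8 RPM against 109, 89.9 and 91.99 RPM (−1.60, SE 0.36). miR-210-3p, induced by hypoxia, was at 110, 102 and 126.3 RPM against 25.7, 24.4 and 18.2 RPM (2.27, SE 0.25).

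Of 8 tested miR-29 and miR-30 members 3 were higher, a share near the 43.9% of all entries, and none was lower (median 0.37). They were led by miR-30b-5p (1.44) and miR-30d-5p (1.27), which stayed above 0 under each scaling but did not pass in RPM without the HNF-linked miRNAs (0.42 and 0.23), while miR-30a-5p (0.45) turned to −0.10 after rescaling. In the miR-15/16 list miR-497-5p was higher (2.85) and miR-15b-5p lower (−1.11) of 4 tested, against 43.9% and 22.4% of all entries. Abundant miRNAs with the smallest changes were miR-92a-1-3p (−0.00), miR-30e-5p (−0.06), let-7g-5p, miR-26b-5p (0.10) and miR-16-2-5p (0.12), each with an adjusted p of 0.495 or more as deposited. In RPM without the HNF-linked miRNAs these 5 were lower by the test (−1.10 to −0.92). miR-26a-2-5p, in contrast with miR-26b, was at 35214, 34270 and 28158 RPM against 9567, 10787 and 11050 RPM (1.63, SE 0.10).

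Entries named miR-5115 and miR-5109 were among the largest on the Negative side. miR-5109 was at 147, 137.9 and 114 RPM in High against 2231, 2940 and 1993 RPM in Negative (−4.14, SE 0.24). miR-5115 ran from 44.9 to 947 RPM in High and from 2803 to 16889 RPM in Negative (−5.73, SE 1.09), and did not pass with the lane term (−2.25, adjusted p = 0.419) or without the libraries that list miR-295-3p (adjusted p = 0.254). The other named miRNAs of this side were miR-1981-5p (−2.08) and miR-378-5p (−1.82).

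Markers of other cell types were listed at low RPM in both gates, some of them higher in High, and their part in the results above was not tested. Of the haematopoietic list 2 of 5 tested members were higher in High, a share near the 43.9% of all entries, and none was lower. These were miR-146a-5p, at 394, 444 and 458 RPM against 26.7, 30.9 and 102 RPM (3.27, with an adjusted p of 0.0753 with the lane term), and miR-342-5p (3.01). miR-150-5p (22.6, 0 and 0 RPM against 0, 0 and 39.4 RPM) and miR-155-5p (31.8, 10.8 and 11.1 RPM against 13.5, 6.51 and 46.7 RPM) did not pass. The defining members miR-223-3p and miR-142-5p were at 0 in 5 libraries and 3 libraries, the latter reaching at most 16 RPM, and the summed level of the list was 568 to 585 RPM in High and 47.6 to 224 RPM in Negative. Erythroid miR-451 and miR-144 were at 0 in all 6 libraries, while miR-486-5p, the one tested erythroid marker, was at 36.2, 27.0 and 38.3 RPM against 9.88, 9.97 and 33.9 RPM and did not pass (1.10, adjusted p = 0.0822, but 0.0112 without Negative replicate 3). Endothelial miR-126-5p did not pass (adjusted p = 0.121). Of 3 tested mesenchymal markers, miR-10b-5p (314, 309 and 267 RPM against 35.02, 68.0 and 53.7 RPM) and miR-1a-2-3p (1.83) were higher in High (against 43.9% of all entries). miR-143-3p did not pass, and the list sums were 299 to 365 RPM against 68.7 to 102 RPM. Of the endocrine markers all 3 were higher in High (against 43.9% of all entries). Of the 8 epithelial markers 5 were higher and 2 lower, the latter a share near the 22.4% of all entries.

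Summed by seed, 134 of 303 totals (44.2%) were higher in High and 52 (17.2%) lower. miR-375 and the other miRNAs without a sequence in the table are not in these totals, and copies of 1 hairpin family may share reads, so the shares describe the table and not molecules. The UGACCUA seed of miR-215 and miR-192 held 14.3% of the pool in High and 42.3% in Negative (−1.57, SE 0.10, adjusted p = 5.26e-08), a smaller change than that of miR-215-5p alone. The GUAACAG seed of miR-194 held 1.12% and 13.7% (−3.62, SE 0.13). The GGAAGAC seed of miR-7 held 6.68% and 0.404% (4.04, SE 0.26). The let-7 seed GAGGUAG was the largest in High, 26.3% against 14.6% (0.85, SE 0.09, and 0.30 after rescaling).

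Most of the other seed totals with large changes rested on 1 miRNA. On the High side they were UGAGGAC (miR-1224), AACAAGU (miR-7a-2-3p), GGACGGA (miR-184), GGAGACG (miR-139-3p), CCCUGAG (miR-125), GAGGUUG (miR-672), AACAGUC (miR-132 and miR-212) and ACCCGUA (miR-99), with changes of 9.39 to 5.16. On the Negative side CUGUCAU (miR-215-3p) and CAGUGGA (miR-194-1-3p) led with −4.16 each. The seed of miR-192 and miR-215 entries read as starting 1 base later, GACCUAU, did not pass (0.07, adjusted p = 0.520), at 2.15% against 2.05% of the pool.

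A smaller share of start-position ratios than of levels passed the test. Of 267 ratios of a shifted to its annotated form, 25 (9.36%) were higher in High and 18 (6.74%) lower. Only 193 of these ratios had both forms listed in all 6 libraries, and 28 of those passed, since the others depend on the value of 1 added to a listed 0. miR-378-3p read as starting 1 base later was 4.99, 5.30 and 4.64% of the annotated form in High and 3.11, 2.88 and 3.24% in Negative (0.70, SE 0.09, adjusted p = 5.60e-04, 0.0320 with the lane term). let-7e-5p read as starting 1 base earlier was 15.4, 9.81 and 15.9 RPM in High and 6.91, 5.97 and 9.35 RPM in Negative, while the annotated form averaged 64.6 RPM in Negative, so its ratio was lower in High by 4.76 (SE 0.31). For miR-203-3p the form read 1 base later reached 78.6 to 97.5% of the annotated form in High and 57.2 to 60.7% in Negative (0.58, adjusted p = 0.0320, but 0.655 with the lane term). The same ratio of miR-192-5p did not pass (−0.04, adjusted p = 0.884).

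Of 65 hairpins with both arms tested, the 5p to 3p ratio was higher in High in 7 (10.8%) and lower in 9 (13.8%). Among the larger ones, miR-877 (5.40, adjusted p = 0.673 with the lane term), miR-7a-2 (−4.56) and miR-210 (2.33) had an arm listed at 0 or near it in 2 or more libraries. The added 1 sets part of the size of these ratios. Others included miR-194-2 (−2.42) and miR-7a-1 (2.76), whose 5p arms cannot be told from those of their copies, and let-7d (−2.14, SE 0.31, adjusted p = 2.77e-04, 0.0218 with the lane term). miR-802 (−1.76) and miR-17 (−1.74) were also lower in High. The call of miR-92b (−1.81) rests on a 5p arm listed at 0 in all 3 Negative libraries. With the lane term 5 ratios passed, among them those of miR-7a-1, miR-7a-2, let-7d and miR-802. The ratio of miR-215 was higher by 1.07 (SE 0.17, adjusted p = 7.44e-04, 0.126 with the lane term) and that of miR-423 by 1.05 (SE 0.20). miR-423-5p, the arm that rose, was at 2853, 2552 and 3064 RPM against 842, 1002 and 1314 RPM, and miR-423-3p did not pass (0.40, adjusted p = 0.161).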

How the data were processed

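The authors deposited 1 table in RPM for 2030 miRNA entries and 14 libraries, in which each library sums to the same total over the entries. Libraries were prepared with a TriLink CleanTag kit, per the labels' protocols, and the build was mm9, per the submitters' processing notes. An aligner was not given in the sources used here. A suffix with a sign and number (1496 entries) was read as a shifted start, which the header does not define. Depth was estimated from steps between low values, of which 78.3 to 81.8% were whole reads within 0.1 read in the 6 libraries, too few for a count test.

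The model was limma 3.58.1 in R 4.3.3 on log2(RPM + 1), with the means of 5 groups over 14 libraries and a mean-variance trend, two-sided, with Benjamini-Hochberg adjustment over each table of entries, ratios or seed totals (threshold 0.05). Ratios needed 10 RPM in 3 libraries for each form, and 50 RPM for an annotated form. Sequences, seeds and neighbours within 10 kb came from RefSeq (GRCm38.p6), which matched 459 of 534 annotated-start entries. The procedure was tested on simulated data. Named miRNAs were up to 15 annotated-start entries in each direction by size (called, at least 100 RPM, no overlap), the largest ratios and seed totals, the most abundant entries, those of least change, and list members; a few neighbours and arms were named after their values were seen. The members and lists were chosen with earlier results of these data known. Figures used matplotlib 3.10.9.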

Additional observations from a re-analysis of the deposited data

How the results depend on the processing

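Counts are given here as the percent of tested features that passed, since filters change how many are tested. Of 119 named entries, 94 kept their call with the lane term and 101 without the libraries that list miR-295-3p, an alternative chosen after the data were seen. Entries passed in 66.3% as reported, 23.8% without a filter (14.3% higher, 9.58% lower), 76.9% at a filter of 50 RPM (48.2% higher) and 40.6% with the lane term (26.4% higher, 14.3% lower). In RPM without miR-192, miR-194 and miR-215, 21.3% were higher and 38.3% lower, and without the miR-295 libraries 14.3% were lower. Shifted-form ratios passed in 16.1% as reported, 9.36% with pseudocount 0.1 or with 6 libraries only, 36.3% with pseudocount 10, 14.6% without a filter, 19.2% at 50 RPM, 4.12% with the lane term and 1.87% without the miR-295 libraries. Arm ratios passed in 24.6% as reported, 43.1% with pseudocount 10, 23.1% without a filter, 38.5% at 50 RPM and 7.69% with the lane term. Seed totals passed in 61.4% as reported, 19.6% without a filter, 71.3% at 50 RPM and 40.9% with the lane term. Ratios between hairpins passed in 25.8% as reported, 16.9% with pseudocount 0.1, 12.4% with 6 libraries only, 11.2% with the lane term and 15.7% without the miR-295 libraries. The cause of these shifts was not tested.

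Leaving out 1 library at a time gave 55.8 to 63.3% of entries (36.1 to 41.3% higher, 19.7 to 22.4% lower), 20 to 26.2% of arm ratios, 51.2 to 59.1% of seed totals, 6.74 to 20.6% of shifted-form ratios and 11.2 to 36.0% of ratios between hairpins. For shifted forms 22 to 27 of 267 passed without High replicate 2 or Negative replicate 1 or 2, and 18 without Negative replicate 3. For ratios between hairpins, 10 to 14 of 89 passed without any 1 library other than High replicate 2. Calls lost in at least 1 such fit were miR-106a-5p (up to adjusted p = 0.147, without High replicate 3), miR-18a-5p (0.107, without High replicate 1), miR-98-5p (0.0755, without High replicate 3), miR-7a-1-3p (0.0528, without Negative replicate 2), miR-10a-5p and miR-20b-5p, while miR-15a-5p passed without High replicate 1 (0.0128), miR-19a-3p without High replicate 2 (0.0168) and miR-486-5p without Negative replicate 3 (0.0112).

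In RPM without miR-192, miR-194 and miR-215, changes turned in let-7a-1-5p (−0.35), let-7b-5p (−0.15), let-7c-1-5p (−0.01), let-7d-5p (−0.38), let-7f-2-5p (−0.29), let-7i-5p (−0.14), miR-106b-3p (−0.93), miR-128-1-3p (−0.32), miR-15a-5p (−0.59), miR-16-2-5p (−0.92), miR-181a-1-5p (−0.44), miR-192-5p (−0.73), miR-200c-3p (−0.15), miR-25-3p (−0.23), miR-26b-5p (−0.93), miR-29a-3p (−0.85), miR-30a-5p (−0.58), miR-30c-1-5p (−0.84) and miR-98-5p (−0.70). With the lane term miR-10a-5p and its shifted form turned (−0.31 each), and without the miR-295 libraries miR-30c-1-5p (−0.25). After median-ratio rescaling miR-16-2-5p (−0.43), miR-26b-5p (−0.45), miR-30a-5p (−0.10) and miR-98-5p (−0.22) turned, and with quantile normalization let-7a-1-5p (−0.03), miR-200c-3p (−0.00) and miR-26b-5p (−0.71).

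Libraries of the same replicate number share a BC token across gates in their column names, and the labels do not say what it marks. Deviations of same-numbered High and Negative libraries from their group means correlated at −0.231, 0.575 and 0.395. Differently numbered libraries gave values from −0.603 to 0.484. With 3 libraries a group these values cannot settle whether the samples are paired, and the main model took no pairing. A fit with the replicate block called 399 entries, 263 of them higher, and 39.3% of the ratios between hairpins. Among named entries it changed 2 calls, since miR-192-5p (0.30, adjusted p = 0.0115) and miR-486-5p (1.10, 0.0165) then passed. Depth limits entries under about 10 reads, which are listed at 0.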
